A study of Danio rerio with 6 samples.

Results

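The receptors for the GDNF family and for the neurotrophins are the surface proteins through which motor neurons read survival and growth factors. The genes described here are ret, gfra1a, gfra1b, gfra2a, gfra2b, gfra3, gfra4a, ntrk2a, ntrk2b and ntrk3a. They were chosen by name as the ret, gfra and ntrk2/ntrk3 receptor genes of motor neurons, and all 10 were found among the 32520 genes of the count tables. RNA was sequenced from Kaede-positive, DAPI-negative cells sorted from the dissected posterior hindbrain of Tg(isl1:Kaede) zebrafish embryos, in which the fluorescent protein Kaede reports isl1 expression. Cranial sensory neurons also use isl1, so the sorted cells need not be motor neurons alone. RA embryos received 50 nM retinoic acid dissolved in DMSO from 24 hours post fertilization (hpf). DMSO embryos received the same volume of the solvent. Both groups also carried 0.2 mM PTU, which blocks pigment, and all were taken at 38 hpf. Each group has 3 libraries of 4500 to 10000 cells (RA replicates 6, 9 and 12, and DMSO replicates 1, 4 and 10). Whether a library pools embryos of 1 clutch or several is not given in the labels, so p-values measure the spread between these libraries, which may be partly technical.

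RET is a receptor tyrosine kinase that does not bind its ligands alone. A GFRα protein, held to the membrane by a lipid anchor, captures a ligand of the GDNF family and presents it to RET. In mammals the product of Gfra1 prefers GDNF, that of Gfra2 neurturin, that of Gfra3 artemin and that of Gfra4 persephin. TrkB, from the ntrk2 genes, binds BDNF, and TrkC, from the ntrk3 genes, binds neurotrophin-3 (gene ntf3), both without a co-receptor of this kind. In mammals and birds GDNF and BDNF keep developing motor neurons alive, and both pathways feed the Ras-MAPK, PI3K and PLCγ routes.

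The libraries held 15971653 to 22349857 counted fragments in RA and 20432411 to 23411427 in DMSO. The treatment marker cyp26a1, which encodes an enzyme that degrades retinoic acid, was at 423 to 3188 counts-per-million (CPM) in RA and 1.90 to 4.93 CPM in DMSO. Branchiomotor markers differed widely in level, and all 8 of them (phox2a, phox2bb, tbx20, isl1a, tbx2b, chata, slc18a3a and slc5a7a) had counts in every library. The summed level of the 8 was 4742 to 5882 CPM in RA and 6545 to 8723 CPM in DMSO, so the groups did not overlap. A large part of that sum came from phox2bb (mean 2011 CPM in RA, 2853 in DMSO) and isl1a (1236 and 1964), whereas chata was at 51.7 and 54.0. The 8 genes did not move alike. The groups overlapped for tbx2b, chata, slc18a3a and slc5a7a, and phox2a, phox2bb, isl1a and tbx20 were lower in every RA library. Of all tested genes, 7.7% were lower in RA without overlap. Of the 8, tbx20 passed in edgeR (log2 fold change -1.65, SE 0.13, adjusted p = 0.00482), while DESeq2 called phox2a, phox2bb, isl1a and tbx20 and limma-voom called phox2a and tbx20. Over all genes tested by each, edgeR called 0.799%, DESeq2 3.86% and limma-voom 2.28%. Markers of neural crest and enteric progenitors, cells that also use ret, summed to 265 to 350 CPM in RA and 405 to 491 CPM in DMSO over 8 genes. Of the 7 tested, 6 had a negative log2 fold change and 1 a positive one (median -0.459, range -0.835 to 2.33). None of them passed in edgeR, and DESeq2 and limma-voom called 1 each. Genes ednrba and mitfa were at 0 in some libraries. Markers of cranial sensory neurons, cells that use ntrk and ret genes, summed to 130 to 181 CPM in RA and 135 to 164 CPM in DMSO over 10 genes, with p2rx3a at 0 in some libraries. Although the sums overlapped, 8 of the 9 tested genes had a negative log2 fold change and 1 a positive one (median -0.588). Without overlap, 3 were lower and 1 higher in RA (7.7% and 7.78% of all tested genes). No sensory marker passed in edgeR, DESeq2 or limma-voom. Epidermal and muscle markers varied by library, with RA replicate 9 highest for 4 epidermal genes (711 CPM, against 29.1 to 315 CPM in the other libraries) and RA replicate 6 highest for 4 muscle genes (989 CPM, against 14.6 to 426 CPM). Endothelial markers summed to 19.6 to 60.2 CPM in RA and 90.0 to 104 CPM in DMSO over 4 genes, without overlap and with cdh5 at 0 in some libraries. These genes did not move alike, since 3 had a positive and 1 a negative log2 fold change (median 1.44, range -2.73 to 2.15). Of them kdrl passed (log2 fold change -2.73, SE 0.37, edgeR adjusted p = 0.0197). Markers of glia and neural progenitors summed to 1299 to 2316 CPM in RA and 1695 to 2006 CPM in DMSO over 8 genes, an overlap. They had 5 positive and 3 negative log2 fold changes (median 0.099). Of these 8, gfap passed, being higher in RA (1.00, SE 0.16, edgeR adjusted p = 0.0352). Markers of spinal motor neurons summed to 288 to 438 CPM in RA and 378 to 551 CPM in DMSO over 6 genes, an overlap. They had 3 positive and 3 negative log2 fold changes (median 0.42, range -1.03 to 2.00). Without overlap, 2 were higher and 1 lower in RA (7.78% and 7.7% of all tested genes). None of the 6 passed in edgeR, while DESeq2 called 2 and limma-voom 1. In bulk samples, fewer cells of a type and less RNA per cell cannot be told apart, and the part of these other cells in the receptor levels was not tested.

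None of the 9 receptor genes with enough counts passed the test for a difference between RA and DMSO (edgeR quasi-likelihood test, Benjamini-Hochberg adjusted p over 17270 genes, 0.592 to 0.956). Over all tested genes, 0.799% passed the adjusted threshold of 0.05, so 0 of 9 is near the background. At an unadjusted p under 0.05 in edgeR the count was also 0 of 9, where 10.2% of all tested genes passed. At the adjusted threshold DESeq2 and limma-voom with quality weights called 0 of the 9 as well, against 3.86% and 2.28% of all genes. The RA and DMSO values overlapped for every one of the 10 receptors, where 15.5% of all tested genes had no overlap (7.78% higher and 7.7% lower in RA). Of the 9, 4 had a positive and 5 a negative log2 fold change, with a median of -0.12 beside 0.017 over all tested genes. The tenth, gfra4a, had too few counts for the test.

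**Figure D1:**
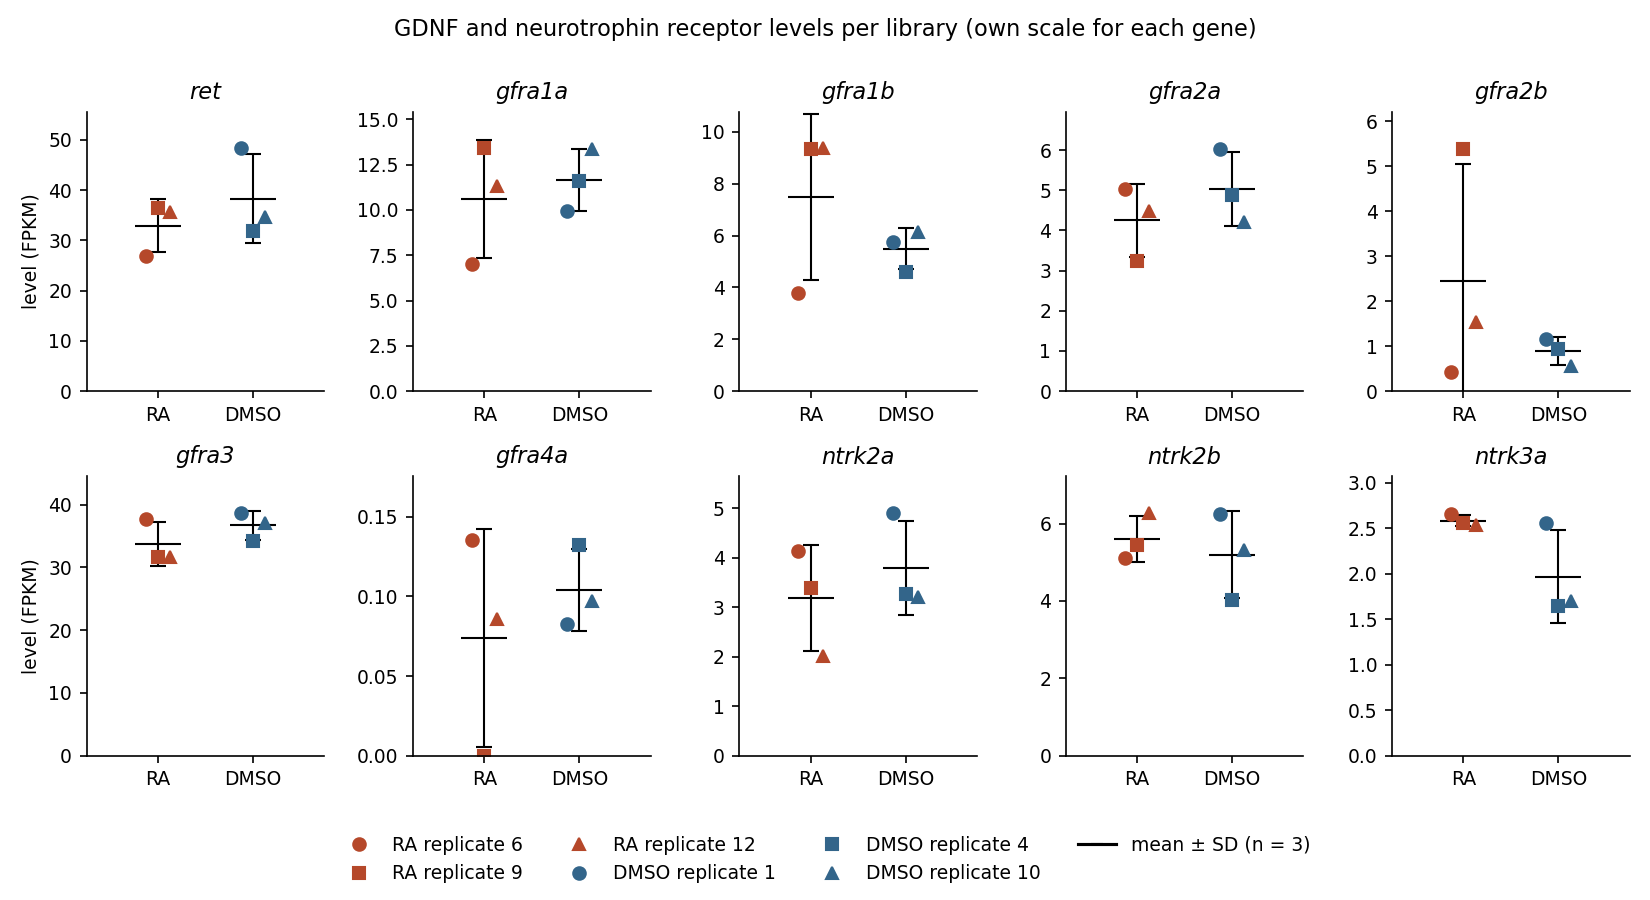
Level of each receptor gene in FPKM (fragments per kilobase of annotated exon, scaled to the size of the library), one point per library, with RA left of DMSO and a scale of its own for each gene. Black lines are the mean and SD of 3 libraries, and the lower bar of gfra2b in RA ends at the axis. The groups overlap in all 10 panels, and in gfra2b a single RA library lies at 5.38 FPKM.

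Levels of different genes are compared per length, as FPKM, in which the length is that of all annotated exons of a gene together. Since one transcript may use fewer exons, the level of a gene with a long annotation (ntrk3a, 13341 bases) may be understated. Genes ret and gfra3 stood above the others, and their mean levels exceeded those of 85.4% and 85.3% of the tested genes. In RA the order was gfra3 at 33.7 FPKM, ret at 32.95, gfra1a at 10.6, gfra1b at 7.49, ntrk2b at 5.61, gfra2a at 4.25, ntrk2a at 3.18, ntrk3a at 2.58, gfra2b at 2.45 and gfra4a at 0.0736. In DMSO it was ret at 38.3 FPKM, gfra3 at 36.7, gfra1a at 11.6, gfra1b at 5.50, ntrk2b at 5.19, gfra2a at 5.04, ntrk2a at 3.80, ntrk3a at 1.97, gfra2b at 0.889 and gfra4a at 0.104. The order thus differed between groups in its first 2 places alone, and there the ranges of ret and gfra3 over libraries overlapped in both. The ranges of both lay wholly above that of gfra1a in both groups. In RA the ranges of gfra1a and gfra1b overlapped, as did those of gfra1b and ntrk2b, of gfra2a and ntrk2a, of ntrk2a and ntrk3a, and of ntrk3a and gfra2b, while those of ntrk2b and gfra2a and of gfra2b and gfra4a did not. In DMSO the neighbours from gfra1b down to ntrk2a overlapped, and gfra1a, ntrk3a, gfra2b and gfra4a were each set apart from their neighbours.

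The shared kinase of the GDNF family, ret (ENSDARG00000055305, GRCz11 chromosome 13, 25584556 to 25632756, minus strand, 19 merged exons), was at 26.8, 36.4 and 35.6 FPKM in RA replicates 6, 9 and 12, against 48.4, 31.9 and 34.7 FPKM in DMSO replicates 1, 4 and 10. RA replicate 6 was the lowest and DMSO replicate 1 the highest library, and the other 4 lay close together. The mean was 32.95 ± 5.34 FPKM in RA and 38.3 ± 8.81 FPKM in DMSO (SD, n = 3 each), from 2193 to 5046 fragments per library. The log2 fold change was -0.22 (SE 0.19, adjusted p = 0.838 in edgeR), with a 95% confidence interval from 0.634-fold to 1.17-fold. A loss of ret to under 0.634 of its DMSO level therefore lay outside that interval. Without DMSO replicate 1 the log2 fold change was -0.023, and without RA replicate 6 it was -0.088.

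Of the co-receptors, gfra3 (ENSDARG00000087704, chromosome 14, 7452302 to 7521444) was the most abundant. Its levels were 37.7, 31.7 and 31.7 FPKM in RA replicates 6, 9 and 12, against 38.7, 34.2 and 37.1 FPKM in DMSO replicates 1, 4 and 10. It varied least of the receptors over the 6 libraries, its highest library being 1.22 times its lowest. Between groups it differed by -0.12 in log2 fold change (SE 0.12, adjusted p = 0.863 in edgeR), and the interval, from 0.754-fold to 1.12-fold, was the narrowest of the 9 tested. The gene supplied 58.0% ± 10.3 of the summed FPKM of the 6 gfra genes in RA and 61.3% ± 1.29 in DMSO (SD, n = 3 each). In RA that share was 69.7% in replicate 6, where gfra1a and gfra1b were at their lowest, and 50.3% and 54.2% in replicates 9 and 12.

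The second most abundant co-receptor was gfra1a (ENSDARG00000099732, chromosome 13, 20392656 to 20519001), whose product corresponds to the mammalian receptor for GDNF. It was at 7.03, 13.4 and 11.3 FPKM in RA replicates 6, 9 and 12, against 9.96, 11.6 and 13.4 FPKM in DMSO replicates 1, 4 and 10. RA replicate 6 lay below the DMSO range and RA replicate 9 at its upper end. This gave a log2 fold change of -0.14 (SE 0.25, adjusted p = 0.947 in edgeR, interval 0.615-fold to 1.35-fold), and it turned to 0.088 without RA replicate 6.

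Its paralog gfra1b (ENSDARG00000102564, chromosome 12, 29763546 to 29818209) was at 3.78, 9.33 and 9.36 FPKM in RA replicates 6, 9 and 12, against 5.75, 4.60 and 6.14 FPKM in DMSO replicates 1, 4 and 10. RA replicates 9 and 12 lay above all DMSO libraries, and RA replicate 6 below them. The mean was 7.49 ± 3.22 FPKM in RA and 5.50 ± 0.804 FPKM in DMSO (SD, n = 3 each), a log2 fold change of 0.45 (SE 0.35, adjusted p = 0.798 in edgeR, interval 0.781-fold to 2.39-fold). Without RA replicate 6 it was 0.77 and still did not pass (edgeR adjusted p = 0.373, the lowest of the 14 alternatives, which reached 0.951).

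The gfra2 pair is related to the mammalian neurturin receptor. The mean level of gfra2a exceeded that of 46.7% of the tested genes, and that of gfra2b exceeded 27.1%. Gene gfra2a (ENSDARG00000042723, chromosome 8, 42059495 to 42238543) was at 5.02, 3.24 and 4.49 FPKM in RA replicates 6, 9 and 12, against 6.04, 4.88 and 4.21 FPKM in DMSO replicates 1, 4 and 10. All 3 RA libraries lay below the DMSO mean, but the ranges overlapped (log2 fold change -0.25, SE 0.27, edgeR adjusted p = 0.884, interval 0.545-fold to 1.30-fold). Gene gfra2b (ENSDARG00000044015, chromosome 10, 19723025 to 19801821) differed most between libraries, with a highest level 12.9 times its lowest.

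It had 9, 162 and 41 fragments in RA replicates 6, 9 and 12, against 32, 30 and 15 fragments in DMSO replicates 1, 4 and 10. Those are 0.417, 5.38 and 1.55 FPKM in RA, against 1.16, 0.942 and 0.560 FPKM in DMSO. The RA libraries thus held both the highest and the lowest value of the 6. The log2 fold change of 1.47 (SE 0.81, adjusted p = 0.640 in edgeR, interval 0.762-fold to 10.0-fold) was the largest of the receptors and the least certain. Without RA replicate 9 it was 0.14, and limma-voom, whose quality weights differ by library, gave 0.15. RA replicate 9 was also the library with the highest summed epidermal markers, and the part of such cells in gfra2b was not tested.

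The remaining co-receptor, gfra4a (ENSDARG00000056651, chromosome 13, 14191293 to 14487524), had 9, 0 and 7 fragments in RA replicates 6, 9 and 12, against 7, 13 and 8 fragments in DMSO replicates 1, 4 and 10. A count of 0 allows up to 3 fragments, and 3 fragments of this gene are 0.0306 to 0.0451 FPKM by library, an allowance for counting error only. Its exons share 129 bases with a gene annotated on the opposite strand, si:dkey-259n11.3, so its count is uncertain. Genes ret, gfra1a and gfra4a lie on chromosome 13 at separate places.

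**Figure D2:**
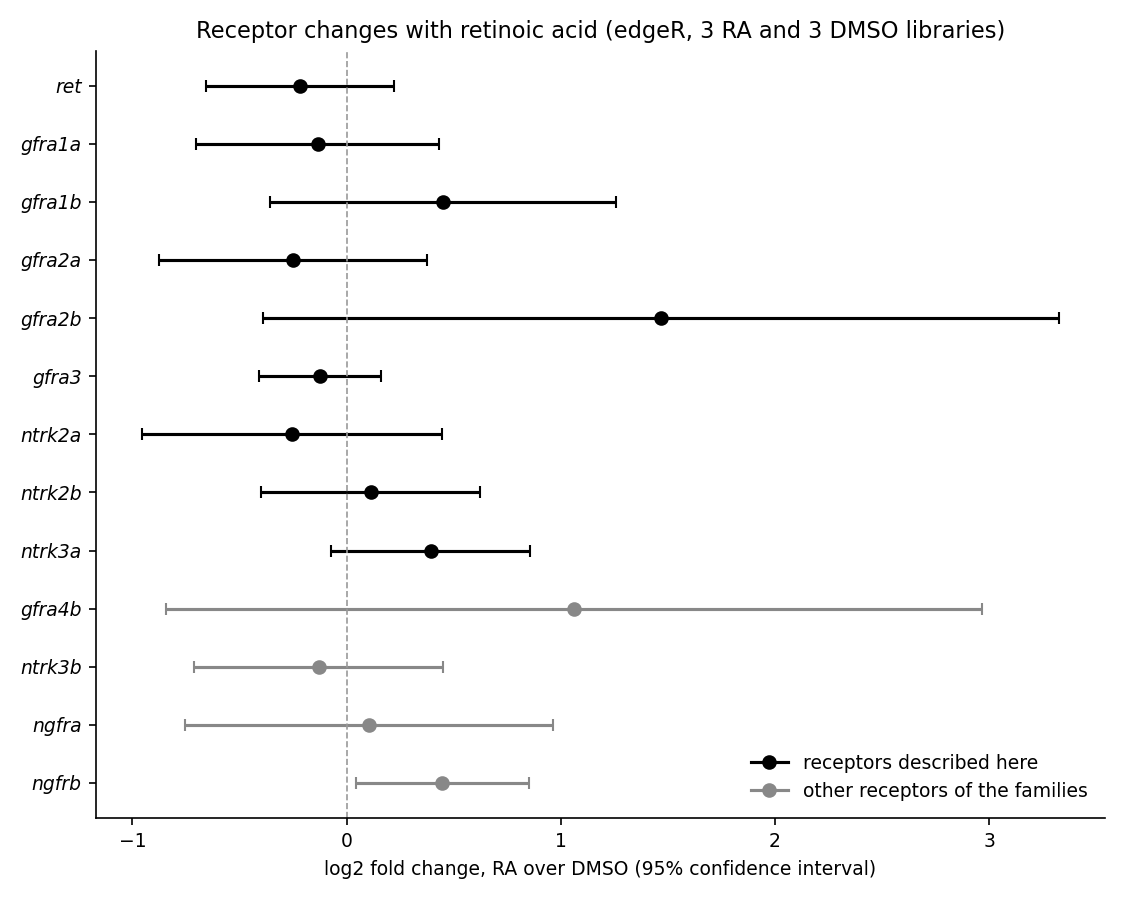
Log2 fold change of RA over DMSO for the 9 tested receptors (black) and for 4 tested relatives (grey), with 95% confidence intervals from the edgeR fit. The intervals of all 9 receptors cross 0, narrowest for gfra3 and widest for gfra2b.

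Among the neurotrophin receptors, the TrkB genes ntrk2a and ntrk2b were both in the middle of the order of levels. Gene ntrk2a (ENSDARG00000059897, chromosome 8, 49778486 to 49865375) was at 4.14, 3.39 and 2.02 FPKM in RA replicates 6, 9 and 12, against 4.90, 3.28 and 3.21 FPKM in DMSO replicates 1, 4 and 10. RA replicate 12 was the lowest of the 6 libraries and RA replicates 6 and 9 lay within the DMSO range. A log2 fold change of -0.26 was found (SE 0.30, adjusted p = 0.900 in edgeR, interval 0.516-fold to 1.36-fold), and without RA replicate 12 it was -0.014.

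Gene ntrk2b (ENSDARG00000098511, chromosome 5, 55626693 to 55689656) was at 5.12, 5.44 and 6.27 FPKM in RA replicates 6, 9 and 12, against 6.25, 4.02 and 5.31 FPKM in DMSO replicates 1, 4 and 10. RA replicates 6 and 9 lay within the DMSO range and RA replicate 12 at its top. Its log2 fold change was 0.11 (SE 0.22, adjusted p = 0.956 in edgeR, interval 0.759-fold to 1.54-fold), with a sign that turned to -0.045 without DMSO replicate 4.

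The TrkC gene ntrk3a (ENSDARG00000077228, chromosome 25, 11795683 to 12203961) had the lowest p of the receptors in edgeR. Its RA libraries were closely alike at 2.66, 2.56 and 2.54 FPKM (replicates 6, 9 and 12), against 2.56, 1.65 and 1.70 FPKM in DMSO replicates 1, 4 and 10. DMSO replicate 1 reached the RA level and the other DMSO libraries lay below it. The means were 2.58 ± 0.0623 FPKM in RA and 1.97 ± 0.511 FPKM in DMSO (SD, n = 3 each), a log2 fold change of 0.39 (SE 0.20, unadjusted p = 0.0868, edgeR adjusted p = 0.592, interval 0.952-fold to 1.81-fold). It lay between 0.28 and 0.62 over 14 alternative fits, with adjusted p from 0.139 (limma-voom) to 0.873. In limma-voom the log2 fold change was 0.57 and the unadjusted p was 0.0068. Without DMSO replicate 1 the log2 fold change was 0.62 (edgeR adjusted p = 0.275).

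The balance within the families was compared as the log2 ratio of fragments per kilobase in each library. The ratio of gfra1a to gfra1b was 1.85, 1.43 and 1.21 in RA replicates 6, 9 and 12, against 1.73, 2.51 and 2.17 in DMSO replicates 1, 4 and 10. Both groups therefore held more gfra1a than gfra1b in every library. The difference in mean log2 ratio, RA minus DMSO, was -0.52 (exact permutation test, two-sided p = 0.2), and RA replicate 6 lay within the DMSO range.

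The ratio of gfra2a to gfra2b was 11.4, 0.603 and 2.88 in RA, against 5.12, 5.10 and 7.31 in DMSO, in the same order of replicates. RA replicate 9 was the one library with more gfra2b than gfra2a. The ratio of ntrk2a to ntrk2b was 0.809, 0.623 and 0.323 in RA, against 0.784, 0.815 and 0.605 in DMSO. Per kilobase ntrk2b thus exceeded ntrk2a in all 6 libraries. That order depends on the annotated exon lengths, 4135 bases for ntrk2a and 2616 for ntrk2b. By fragments ntrk2a was higher in RA replicate 6 (275 against 215) and in DMSO replicates 1 (415 against 335) and 4 (321 against 249). In RA replicates 9 and 12 and DMSO replicate 10 it was lower. The ratio of ret to the summed gfra genes was 0.495, 0.577 and 0.608 in RA, against 0.783, 0.566 and 0.564 in DMSO. These 3 balances differed by -1.09, -0.42 and -0.17 in mean log2 ratio (exact permutation tests, two-sided p = 0.5, 0.6 and 0.6). Adjusted over the 4 ratios every p was 0.6 (exact permutation tests, Benjamini-Hochberg), and 3 libraries against 3 cannot give an exact p below 0.1.

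**Figure D3:**
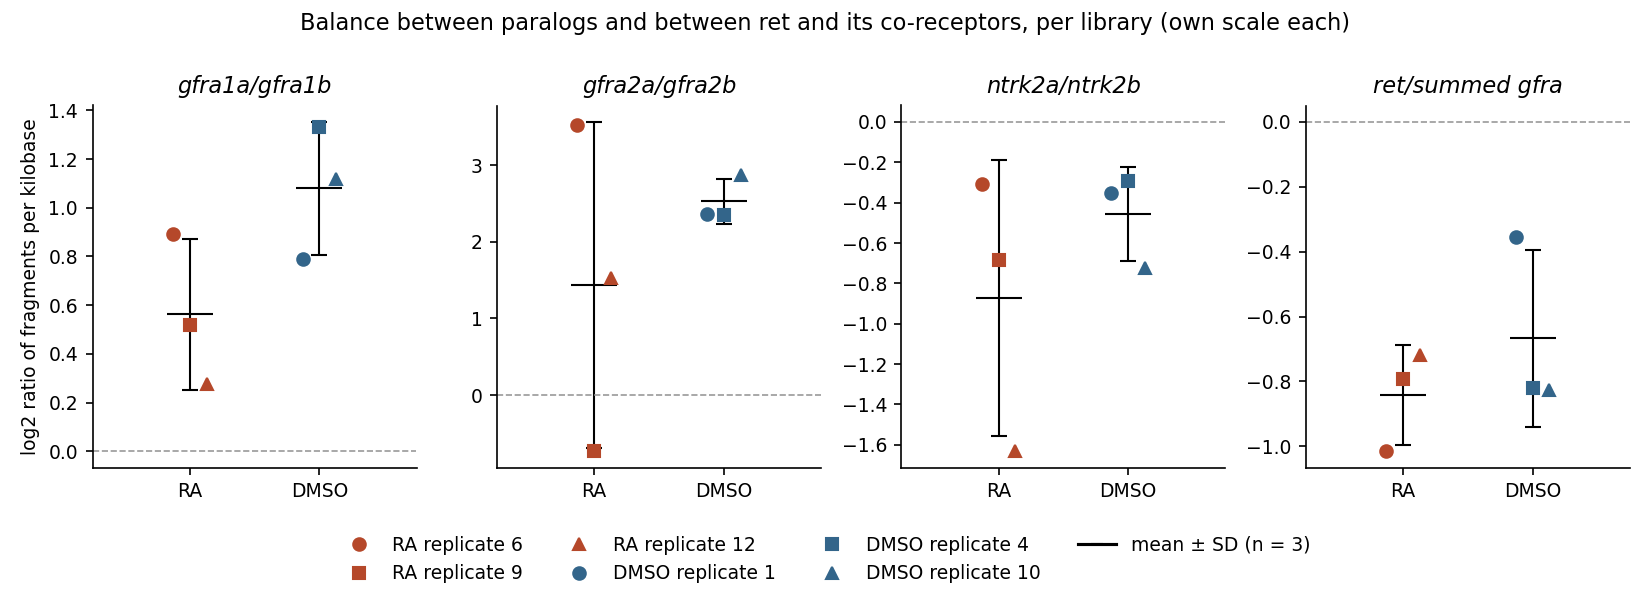
Log2 ratio of fragments per kilobase between receptor genes, one point per library, with RA left of DMSO and the mean and SD of 3 libraries in black. The groups overlap in all 4 ratios, and RA replicate 9 lies below 0 for gfra2a over gfra2b.

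Summed over the 6 gfra genes, the level was 54.1, 63.0 and 58.5 FPKM in RA replicates 6, 9 and 12, against 61.7, 56.3 and 61.5 FPKM in DMSO replicates 1, 4 and 10. The range of the co-receptor total in RA thus enclosed that in DMSO. The 3 ntrk genes summed to 11.9, 11.4 and 10.8 FPKM in RA, against 13.7, 8.94 and 10.2 FPKM in DMSO, again an overlap.

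The genes whose levels ran most like those of ret over the 6 libraries were znf414, snu13a, tmem255a, cwf19l2 and ppp1r14ab. Their mean-centred log2 CPM differed from that of ret by a root mean square of 0.0752 to 0.0937, over 10067 genes that varied at least as much as ret. All 5 were highest in DMSO replicate 1 and lowest in RA replicate 6, as ret was, which follows largely from how they were picked. The nearest, znf414, was low, at 0.809 to 1.81 CPM, and whether any of the 5 varies with ret was not tested. Among the receptors in that comparison gfra1a was nearest to ret, at 0.321 and place 1217. Genes gfra3 and ntrk2b varied less than ret and were not in it.

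The other receptors of the 2 families gave 0 of 5 tested genes past the threshold in edgeR, DESeq2 and limma-voom. At an unadjusted p under 0.05 in edgeR the count was 1 of 5, beside 10.2% of all tested genes. The most abundant was ngfrb, a gene for the p75 neurotrophin receptor, which binds all neurotrophins. It was at 37.7, 25.8 and 28.9 FPKM in RA replicates 6, 9 and 12, against 23.6, 20.1 and 24.0 FPKM in DMSO replicates 1, 4 and 10. The groups did not overlap, RA being higher, as for 7.78% of all tested genes, and the log2 fold change of 0.45 (SE 0.18) did not pass (edgeR adjusted p = 0.425). Its paralog ngfra was at 2.51, 4.35 and 1.58 FPKM in RA, against 3.49, 2.46 and 1.91 FPKM in DMSO.

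Gene ntrk3b, the paralog of ntrk3a, was at 1.73, 1.89 and 1.47 FPKM in RA, against 1.46, 2.23 and 1.88 FPKM in DMSO (log2 fold change -0.13, SE 0.25, edgeR adjusted p = 0.953). Gene gfra4b was carried by a single library, at 12.5, 0.977 and 1.64 FPKM in RA replicates 6, 9 and 12, against 2.25, 2.21 and 2.76 FPKM in DMSO replicates 1, 4 and 10 (log2 fold change 1.06, SE 0.83, edgeR adjusted p = 0.797). RA replicate 6 was the library richest in muscle markers, and the part of such cells in gfra4b was not tested. Gene gfral had 0, 50 and 4 fragments in RA, against 7, 4 and 0 fragments in DMSO, too few for the test.

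Most ligand genes had few fragments in the sorted cells. The highest mean level over all 6 libraries was that of artnb (3.88 FPKM), followed by bdnf (2.05 FPKM). In DMSO alone bdnf was at a mean of 1.94 FPKM and artnb at 1.92. By fragments bdnf was the highest ligand gene, with 82 to 177 per library against 22 to 73 for artnb. Of 5 GDNF family ligand genes, 2 were tested, and of 4 neurotrophin genes, 3 were. None passed in edgeR, where 1 of the 5 tested had an unadjusted p under 0.05, beside 10.2% of all tested genes. Limma-voom also called none, while DESeq2 called artnb (2.28% and 3.86% of all genes tested by each). Gene artnb, for artemin, the ligand of the Gfra3 product in mammals, was at 8.03, 3.71 and 5.81 FPKM in RA replicates 6, 9 and 12, against 1.90, 1.64 and 2.22 FPKM in DMSO replicates 1, 4 and 10. The groups did not overlap, RA being higher, as for 7.78% of all tested genes. Gene artnb had 47 to 73 fragments per library in RA and 22 to 25 in DMSO. The log2 fold change was 1.602 (SE 0.42), with an adjusted p of 0.178 in edgeR, 0.0380 in DESeq2 and 0.0558 in limma-voom. Over the 14 alternatives its adjusted p lay between 0.0380 and 0.505.

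Gene gdnfa was at 1.57, 0.435 and 0.695 FPKM in RA, against 0.735, 0.430 and 0.489 FPKM in DMSO (edgeR adjusted p = 0.809). Gene gdnfb had 0 to 3 fragments per library, artna 0 to 4, and nrtn, the neurturin gene, 0 in all 6, which allows up to 0.0473 to 0.0697 FPKM by library. Gene bdnf was at 1.70, 1.82 and 2.98 FPKM in RA, against 2.22, 2.19 and 1.42 FPKM in DMSO (edgeR adjusted p = 0.960). Gene ntf3, the TrkC ligand in mammals, was at 0.349, 1.25 and 0.189 FPKM in RA, against 1.00, 2.21 and 0.938 FPKM in DMSO, an overlap (log2 fold change -1.19, SE 0.75, edgeR adjusted p = 0.705). Gene ngfb lay between 0.320 and 0.679 FPKM in all libraries, and ngfa had 0 to 7 fragments.

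Adaptor and kinase genes downstream of the receptors were also listed with earlier results of these data known. In edgeR 1 of the 27 tested passed, beside the 0.799% of all tested genes. This was gab1, a docking protein that links several receptor tyrosine kinases, MET among them, to PI3K and SHP2. It rose to 23.5, 20.7 and 25.0 FPKM in RA replicates 6, 9 and 12, against 12.6, 11.9 and 13.8 FPKM in DMSO replicates 1, 4 and 10. Its log2 fold change was 0.85 (SE 0.13, adjusted p = 0.0316 in edgeR, higher in 3 of 3 RA libraries). Its adjusted p was 0.108 to 0.183 in the 5 edgeR fits that left out DMSO replicate 1, 4 or 10 or RA replicate 6 or 12, and 0.0179 without RA replicate 9. The log2 fold change lay between 0.79 and 0.92 over the 14 alternatives, of which 9 called gab1, among them DESeq2 (adjusted p = 9.48e-06) and limma-voom (adjusted p = 0.00794).

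The median of the adaptors was -0.066, with 12 positive and 15 negative values. Among the 27 tested, RA was higher without overlap for 2 and lower for 3 (7.78% and 7.7% of all tested genes). Gene fyna, a Src family kinase, was the most abundant at 70.6, 72.3 and 71.5 FPKM in RA, against 99.9, 79.0 and 77.3 FPKM in DMSO, without overlap (log2 fold change -0.26, SE 0.13, edgeR adjusted p = 0.577). The next were frs2b, an adaptor of RET and Trk kinases, at 23.7 to 26.7 FPKM in RA and 16.5 to 26.7 in DMSO, and cblb, a ubiquitin ligase, at 20.04 to 29.9 FPKM in RA and 20.6 to 22.8 in DMSO. The count of cblb is uncertain, since its exons share 1254 bases with alcama on the opposite strand. Genes grb10a, an adaptor gene (log2 fold change 1.34, SE 0.31), and shc2, an adaptor gene of neural tissue (-0.54, SE 0.14), did not pass in edgeR (adjusted p = 0.123 and 0.176) and did in DESeq2 (0.00225 and 0.0298). In limma-voom grb10a passed (adjusted p = 0.0323) and shc2 did not (0.0577). Over the 14 alternatives the adjusted p of grb10a lay between 0.00225 and 0.387, and that of shc2 between 0.0298 and 0.517.

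Of 12 tested co-receptors and regulators 0 passed in edgeR, DESeq2 or limma-voom. At an unadjusted p under 0.05 in edgeR the count was 1 of 12, beside 10.2% of all tested genes. Without overlap, 2 were lower and 0 higher in RA (7.7% and 7.78% of all tested genes). The 12 genes had 6 positive and 6 negative log2 fold changes with a median of -0.035. Gene ncam1a, for a cell adhesion molecule that can bind GDNF with a GFRα partner in mammals, was at 44.9, 54.7 and 36.7 FPKM in RA, against 56.2, 41.1 and 46.1 FPKM in DMSO. Gene kidins220b, a scaffold of Trk receptors, was at 41.2 to 49.1 FPKM in RA and 39.1 to 48.1 in DMSO. The receptor phosphatase gene ptprfa was at 17.7, 19.5 and 13.6 FPKM in RA, against 23.6, 21.0 and 26.9 FPKM in DMSO (log2 fold change -0.49, SE 0.16, edgeR adjusted p = 0.298).

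Output genes of receptor tyrosine kinase signalling gave 0 of 13 past the threshold (edgeR, 2 of 13 at an unadjusted p under 0.05, beside 10.2% of all tested genes, and 0 with DESeq2 and with limma-voom), with a median of 0.12 and 9 positive values. The ETS factor gene etv5b, whose family members GDNF induces in mouse motor neurons, was at 24.2, 33.4 and 25.8 FPKM in RA, against 15.4, 27.0 and 31.6 FPKM in DMSO (log2 fold change 0.17, SE 0.26, edgeR adjusted p = 0.934). The feedback inhibitor genes spry2 and spred1 had log2 fold changes of 0.25 (SE 0.15) and 0.30 (SE 0.12), and neither passed (edgeR adjusted p = 0.674 and 0.434). The widest difference in the list was that of egr1, an immediate early gene, in the other direction (log2 fold change -1.22, SE 0.53, edgeR adjusted p = 0.482). It was at 2.21, 7.39 and 6.76 FPKM in RA, against 5.38, 14.9 and 17.9 FPKM in DMSO.

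**Figure D4:**
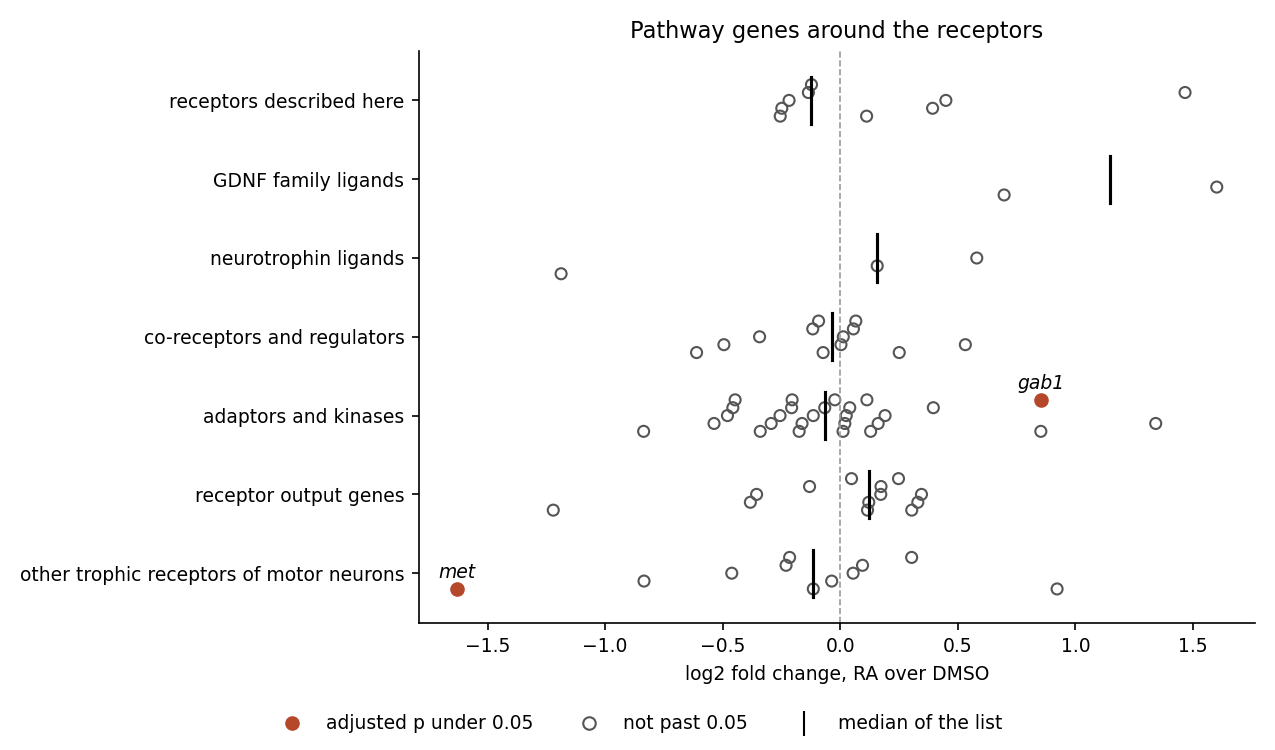
Log2 fold change of RA over DMSO for each tested gene of the receptors and of 6 lists around them, with the median of each list as a black bar. Filled points passed an adjusted p of 0.05 in edgeR, and these are gab1 (0.85) and met (-1.63).

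Other trophic receptors used by motor neurons were measured beside them, with 4 positive and 7 negative log2 fold changes and a median of -0.11. Among the 11 tested, RA was lower without overlap for 3 and higher for 0 (7.7% and 7.78% of all tested genes). The list was chosen with earlier results of these data known, so its share of calls is no neutral measure. In edgeR 1 of the 11 passed, beside 0.799% of all tested genes. This was met, the receptor of hepatocyte growth factor, which fell to 11.1, 17.5 and 13.6 FPKM in RA replicates 6, 9 and 12, against 41.9, 33.3 and 55.7 FPKM in DMSO replicates 1, 4 and 10 (log2 fold change -1.63, SE 0.23, edgeR adjusted p = 0.0247). Its adjusted p was 0.0638 to 0.125 in the 5 edgeR fits that left out DMSO replicate 1, 4 or 10 or RA replicate 6 or 12, and 0.0157 without RA replicate 9. In RA the level of met lay below those of ret and gfra3 in every library, whereas in DMSO its range overlapped theirs. The ciliary neurotrophic factor receptor gene cntfr was at 37.8, 53.9 and 40.6 FPKM in RA, against 52.9, 54.2 and 48.1 FPKM in DMSO (log2 fold change -0.23, SE 0.16, edgeR adjusted p = 0.742), and igf1ra, an insulin-like growth factor receptor gene, was at 7.44, 13.2 and 5.56 FPKM in RA, against 10.3, 9.69 and 8.46 FPKM in DMSO (edgeR adjusted p = 0.967).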

How the data were processed

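Raw fragment counts for each gene were deposited. Per the file headers, the authors made them with featureCounts 1.6.0 on paired-end alignments without strand, using the Ensembl 95 annotation of GRCz11. The submitters' processing notes name bcl2fastq 1.8.4, STAR 2.5.2a and Subread 1.5.0. The headers show no option for fragments that map to several places or genes, so counts of close paralogs may be incomplete. Exon lengths come from the same deposited tables.

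Symbols came from a table of identifiers. Symbols in capitals were replaced by the RefSeq symbol (GRCz12tu, names alone) where the chromosome was the same and the match unique. Of 158 list entries, 142 matched.

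Genes were kept by filterByExpr, which left 17270, scaled by TMM and tested with edgeR 4.0.16 in R 4.3.3 (quasi-likelihood, treatment only, two-sided, Benjamini-Hochberg, threshold 0.05). Standard errors are the log2 fold change over the square root of F. FPKM and CPM use TMM-scaled totals. Log2 ratios carried a pseudocount of 0.5 fragments. Alternatives used DESeq2 1.42.0 and limma 3.58.1. The script was checked on simulated counts with large set changes only, so its power for small changes was not measured. Libraries of a group differed by more than sampling noise (chi-square divided by its degrees of freedom at least 17.1), so none was taken for a repeat deposit of another, which does not show that they are independent. A promoter motif search was not run, since promoter sequence was not used here. The receptors and lists were chosen with earlier results of these data known. Named genes are all 10 receptors, all ligands and other receptors of both families (1 of these is counted in its list and is not reported here), and, from the other pathway lists, every gene past the threshold and the 3 most abundant. Genes grb10a, shc2, egr1 and the markers given with values are named beyond this, after their values were seen.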

Additional observations from a re-analysis of the deposited data

How the results depend on the processing

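No paired analysis was run, since the labels do not say whether RA and DMSO libraries were collected together. Each library has a number of its own, which neither shows nor excludes pairs. The number of receptors past the threshold was 0 in the edgeR fit and in all 14 alternatives (3 other scalings, 2 other filters, a robust dispersion, DESeq2, limma-voom with quality weights and 6 fits that left out a library each). Of 126 receptor values under these alternatives, 124 kept their sign. The exceptions were gfra1a without RA replicate 6, and ntrk2b without DMSO replicate 4. When a library was left out, gfra1a lay between -0.35 and 0.088 and ntrk2b between -0.045 and 0.26. The number of all genes past 0.05 was 138, with 276 under no filter, 699 with DESeq2, 394 with limma-voom and 9 to 325 when a library was left out. It was 10, 9 and 18 without DMSO replicates 1, 4 and 10, and 72, 325 and 61 without RA replicates 6, 9 and 12, and the cause was not tested. Among adaptors and kinases it was 1, with 3 in DESeq2, 2 in limma-voom and 0 to 2 when a library was left out. Among the other trophic receptors it was 1, and 0 to 1 when a library was left out. Among the GDNF family ligands it was 0, with 1 in DESeq2. The 4 log2 ratios kept their sign under a pseudocount of 1 fragment and with each library left out, although gfra2a over gfra2b, at -1.09, was -0.00417 without RA replicate 9. Of the marker ratios, ret over tbx2b lay between -0.24 and 0.19, and gfra3 over tbx2b between -0.034 and 0.25, over chata between -0.19 and 0.18 and over slc18a3a between -0.37 and 0.065 when a library was left out, each changing sign. With 3 libraries per group, the 95% intervals of ret, gfra1a, gfra2a, gfra3, ntrk2a, ntrk2b and ntrk3a stayed within 2-fold either way, and those of gfra1b and gfra2b did not.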

Other observations

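The levels of ret and gfra3 were also set against each of the 8 branchiomotor markers in the same library, as ratios of fragments per kilobase. This comparison was chosen after the values were seen, and no test is given. The result depended on the marker. The ratio of ret to isl1a, a gene for a LIM homeodomain factor of motor neurons, was 0.0627, 0.0668 and 0.0560 in RA replicates 6, 9 and 12, against 0.0467, 0.0445 and 0.0430 in DMSO replicates 1, 4 and 10. The ratios of ret to phox2a and to tbx20 were also higher in every RA library than in every DMSO library, with mean log2 differences of 0.82 and 1.43 beside 0.46 for isl1a. Those to phox2bb (0.29), tbx2b (0.0044), chata (-0.14), slc18a3a (-0.27) and slc5a7a (-0.32) overlapped between the groups. For gfra3 the ratios to phox2a (0.90), phox2bb (0.37), tbx20 (1.52) and isl1a (0.54) were higher in every RA library, and those to tbx2b (0.087), chata (-0.054), slc18a3a (-0.19) and slc5a7a (-0.24) overlapped. The markers whose ratios did not overlap are among the 4 (phox2a, phox2bb, tbx20 and isl1a) that were themselves lower in every RA library. A gene of unchanged level would also tend to give higher ratios to these 4 in RA. The share of all tested genes with such ratios was not counted, so they show nothing particular to ret or gfra3. Genes chata, slc18a3a and slc5a7a, which serve acetylcholine synthesis and transport, had log2 fold changes of -0.063, 0.069 and 0.11. Kaede is driven by isl1 sequences, so cells were sorted on a gene of this comparison.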
